A study of Sus scrofa with 6 samples.

Results

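The ion channel and calcium release genes of the porcine oocyte were taken as all genes whose symbol in the array's annotation starts with KCN, CACN, SCN and a digit, TRPA, TRPC, TRPM, TRPV, CLCN, ITPR, RYR, ORAI or STIM. The rule found 113 genes on 114 probes, of 10663 genes that had a probe with 1 symbol and of 12258 probes in all. ITPR2 was the 1 gene with 2 probes, and the brighter by the mean of the 6 arrays stood for it. Because symbols set membership, ITPRIP, TRPC4AP and KCNRG, whose products bind or regulate channels, were members as well. The rule itself uses only symbols and no measured value, and it was set with earlier results of these data known.

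Total RNA was taken from pools of 50 oocytes of pubertal crossbred Landrace gilts, with 1 pool per array. The 3 pools of the first group are titled in vivo oocytes and described as taken before maturation in culture. The 3 pools of the second group were matured for 44 h as complexes of an oocyte and the somatic cumulus cells around it, at 38 °C under 5% CO2 in TCM-199 medium with porcine follicular fluid and the gonadotropins hCG and eCG. The series' design text says that the oocytes were of grade I and that a BCB test, a staining with the dye brilliant cresyl blue, sorted oocytes into groups before maturation, and the labels do not say which of these groups the pools hold. The labels give 1 breed and no genotype or transgene for either group, RNA was amplified from 100 ng, and whether cumulus cells were removed before extraction is not given in the sources used here. Only the second group was cultured, so maturation and culture cannot be told apart.

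Ion channels are membrane proteins that let potassium, sodium, calcium, chloride or other ions pass down their gradients, and each consists of pore-forming subunits that accessory subunits can modify. In oocytes calcium leaves the endoplasmic reticulum through IP3 receptors, which open when phospholipase C makes the messenger IP3, and the resulting calcium oscillations activate the egg at fertilisation. The stores are refilled by calcium from outside, through STIM sensors that open ORAI channels and, as shown in mouse oocytes, through T-type voltage-gated channels and channels of the TRP family. During maturation the IP3-dependent release becomes more responsive, and cumulus cells, coupled to the oocyte by gap junctions, carry channels of their own.

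Array medians lay between 5.62 and 5.70 on the log2 scale, and lower quartiles between 4.27 and 4.45. The lower quartiles were 4.33 to 4.45 in the matured arrays and 4.27 to 4.30 in the earlier ones. Medians went the other way, at 5.62 to 5.64 after and 5.67 to 5.70 before maturation. The part of this offset at the low end in the differences of dim probes was not tested. Correlations across probes were 0.989 to 0.995 within groups and 0.965 to 0.983 between them. Replicate 3 before maturation lay farthest out on the first principal component. Of 25 listed oocyte markers 18 were measured, none of which lay under an array's lower quartile. Of these 18 markers 3 fell and 0 rose, namely KIT, a receptor kinase gene (-1.22), and the zona pellucida genes ZP3 (-0.70) and ZP4 (-0.40). Of 20 measured cumulus and granulosa cell markers 12 fell and 3 rose, with a mean log2 level of 7.53, 7.67 and 7.89 in replicates 1, 2 and 3 before maturation and 6.72 to 6.86 after it. Of these 20 markers 2 or 3 per array were dimmer than that array's lower quartile, and the deposited values have no zero. In bulk samples fewer cells of a type and less RNA per cell cannot be told apart. Among 11 markers of theca and stroma there were 2 that rose and 1 that fell, and 1 of 9 leukocyte and erythroid markers rose. Of 7 endothelial markers 0 were called by limma. Among them 2, SOX17 and KDR, had an unadjusted p under 0.05, as did 29.2% of all probes.

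Few ion channel genes passed the test, and no fitted difference reached 2-fold. At an adjusted p under 0.05, 6 of the 113 genes were called higher after maturation and 5 lower, and 102 were not called. Called genes made up 9.73% of the members, against 11.3% of all probes, of which 3.21% were called higher and 8.07% lower. The genes called lower were ITPR2, KCNAB2, KCNA4, KCNK1 and CACNA1E. Those called higher were KCNA7, SCN4B, KCNIP2, KCNK3, TRPM6 and CACNB1. Other scalings of the arrays moved this split of 6 higher and 5 lower to 3 and 5 with cyclic loess, 10 and 2 after a second quantile normalization, 13 and 5 with a common median, and 103 and 1 with the mean of 41 ribosomal protein probes held level. In the same order 7.08%, 10.6%, 15.9% and 92.0% of members were called, against 10.7%, 11.9%, 14.7% and 82.0% of all probes. Together the 11 genes span calcium release, voltage-gated calcium, sodium and potassium channels, background potassium channels and a magnesium-permeable TRP channel.

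Differences, always given as after minus before maturation on the log2 scale, ran from -0.85 for ITPR2 to 0.69 for KCNA7. No member differed by 2-fold or more, a log2 difference of 1, while 3.66% of all probes did. KCNA7 passed 2-fold with ribosomal protein genes held level (1.14), and ITPR2 did without replicate 2 before maturation (-1.07). The 95% interval of the difference lay wholly within 2-fold for 109 of the 113 genes, a share of 96.5% against 92.6% of all probes. Against a change of 1.5-fold, limma's treat test called 0 members at an adjusted p under 0.05, and 0 had an unadjusted p under 0.05. Of all probes 2.03% passed it.

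**Figure D1:**
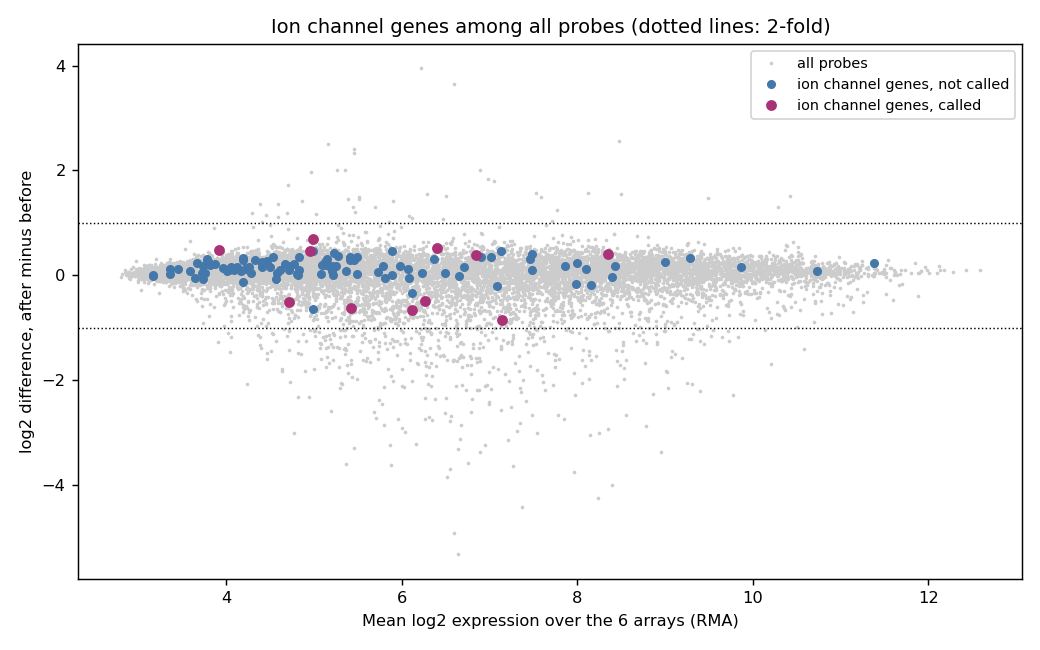
Mean log2 level over the 6 arrays (horizontal axis) against the log2 difference after minus before maturation (vertical axis) for all 12258 probes in grey and the 113 ion channel genes in colour, with 2-fold marked by dotted lines. All 113 genes lie between -0.85 and 0.69, inside the 2-fold lines.

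Most members had small positive differences on the deposited scale. The value was positive for 94 of 113 genes, a share of 83.2% against 65.4% of all probes, and the member median was 0.17 beside 0.08 for all probes. On the same scale 35 of 47 genes of ion channel families outside the naming rule were positive (median 0.16). So were 7 of 7 endothelial markers (0.23) and 9 of 9 leukocyte and erythroid markers (0.21). Positive values were fewer among oocyte markers (12 of 18, median 0.04), theca and stromal markers (7 of 11, 0.049) and cumulus and granulosa markers (6 of 20, -0.87). With ribosomal protein genes held level the member median was 0.63 and that of all probes 0.54, a scaling that adds the same amount to both. With cyclic loess, another scaling, the medians were 0.086 and 0.0071 and 66.4% of members had a positive value, against 51.5% of all probes. All matured arrays lay above all earlier ones for 38 members, where 21.7% of all probes did so, and below them for 6, where 14.4% of all probes did so. Both directions together made up 38.9% of members and 36.1% of all probes. An unadjusted p under 0.05 was reached by 35 members, a share of 31.0% against 29.2% of all probes.

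Many of these probes were dim. All 6 arrays lay under their lower quartile for 25 of the 113 genes (22.1%, against 20.2% of all probes), among them SCN7A, KCNH8, KCNC2, KCNIP1 and TRPA1. Background was not assessed, so such a gene is not shown to be expressed. At the other end 13 members were among the brightest 25% of probes by mean level, and 1 of these 13, TRPM6, was called.

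**Figure D2:**
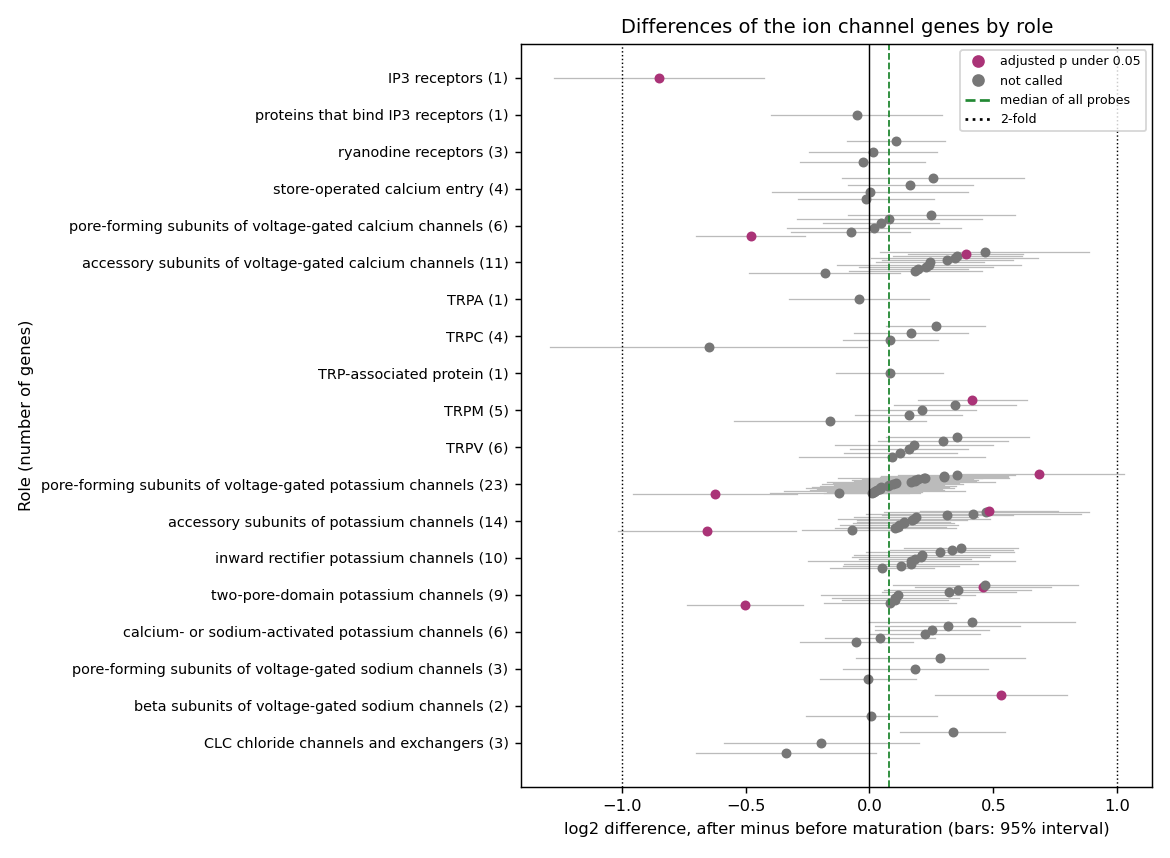
Log2 difference after minus before maturation of each of the 113 genes, one point per gene with its 95% interval from the limma fit, in rows by role. Called genes are purple, the green dashed line is the median of all probes (0.08), and every role with 9 or more genes has a majority of its points to the right of 0.

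Among the calcium release genes the IP3 receptor gene ITPR2 fell, and the ryanodine receptor genes were not called. ITPR2 encodes the type 2 IP3 receptor, a calcium channel of the endoplasmic reticulum. It was the 1 IP3 receptor gene among the members, so ITPR1 and ITPR3 have no value here. On its brighter probe (15293412) the log2 level in replicates 1, 2 and 3 was 7.63, 7.12 and 7.94 in the earlier pools and 6.67, 6.77 and 6.69 in the matured pools. All 3 matured pools lay under all 3 earlier pools, and the earlier pools were spread far more widely (SD 0.41 against 0.05, n = 3). The difference was -0.85 with a standard error of 0.19, or 1.8-fold lower (adjusted p = 0.0236).

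The other ITPR2 probe (15289035) gave the same direction. Its levels were 6.85, 6.56 and 7.48 before maturation and 6.21, 5.66 and 6.21 afterwards, a difference of -0.94 (adjusted p = 0.0426). On both probes replicate 3 was the highest of the earlier pools. Without replicate 3 before maturation the brighter probe differed by -0.66 and was still called (adjusted p = 0.0384). Without replicate 1, 2 or 3 after maturation it was not (adjusted p = 0.0935, 0.0755 and 0.0678), nor after a second quantile normalization (-0.71, adjusted p = 0.0519).

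RYR1, RYR2 and RYR3 encode ryanodine receptors, the calcium release channels of muscle and nerve. RYR3 had levels of 8.50, 8.50 and 8.24 in the pools taken before and 8.43, 8.46 and 8.26 in those after maturation, with replicate 3 the lowest in both groups. Its difference of -0.027 had a 95% interval of -0.28 to 0.23 (adjusted p = 0.886). RYR2 differed by 0.014 (-0.24 to 0.27) and RYR1 by 0.11 (-0.09 to 0.30). ITPRIP, whose product binds IP3 receptors, differed by -0.051 (-0.40 to 0.29). By limma 0 of these 4 genes were called, and 0 had an unadjusted p under 0.05. With ribosomal protein genes held level all 4 were called higher, with RYR3 at 0.43 and ITPRIP at 0.41. Under that scaling 82.0% of all probes were called in either direction.

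**Figure D3:**
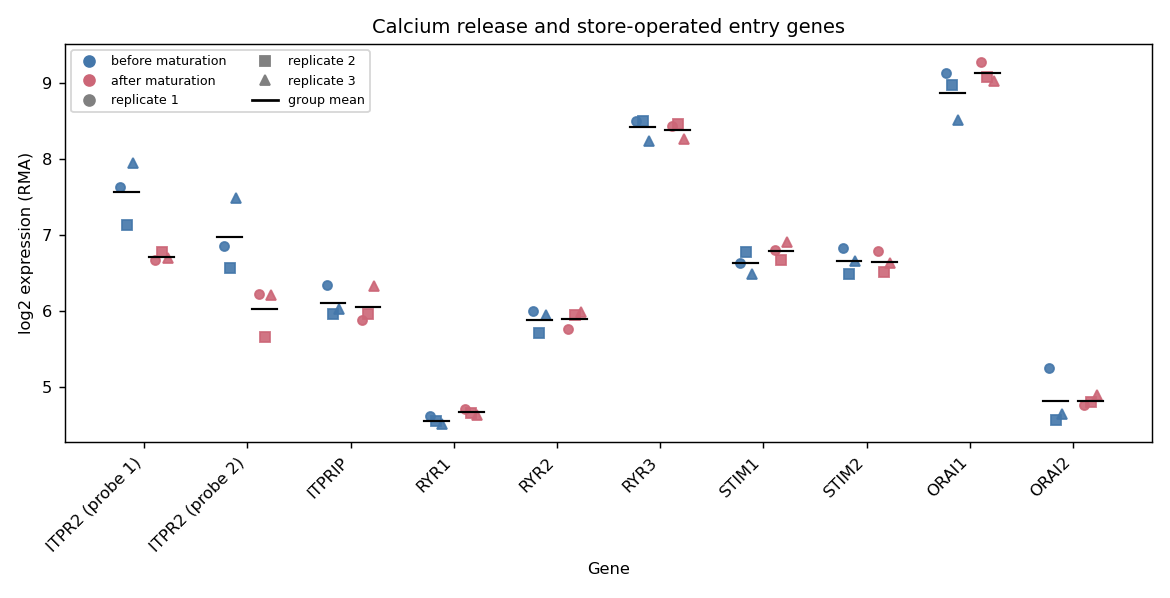
Log2 level (vertical axis) of the calcium release and store-operated entry genes on each array, with blue before and red after maturation, the marker shape giving the replicate and a black bar the group mean. Both ITPR2 probes lie lower after maturation with no overlap (-0.85 and -0.94), and every other gene except RYR1 has overlapping groups.

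The genes of store-operated calcium entry were not called. STIM1 and STIM2 encode the sensors that read the filling of the store, and ORAI1 and ORAI2 encode pore subunits in the plasma membrane. STIM1 had levels of 6.63, 6.77 and 6.48 in the earlier pools and 6.80, 6.67 and 6.90 in the matured pools, a difference of 0.16 (95% interval -0.09 to 0.42, adjusted p = 0.347). STIM2 had levels of 6.82, 6.48 and 6.65 before maturation and 6.78, 6.50 and 6.63 afterwards. Same-numbered STIM2 arrays lay close together, and the difference was -0.014 (-0.29 to 0.26).

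ORAI1 had levels of 9.12, 8.97 and 8.51 in the pools taken before and 9.27, 9.08 and 9.02 in those after maturation. Replicate 3 before maturation was the lowest of the 6 arrays, the groups overlapped, since replicate 1 before lay above replicates 2 and 3 after it, and the difference of 0.25 had an interval of -0.11 to 0.62 (adjusted p = 0.319). Without replicate 3 before maturation the ORAI1 difference was 0.078. ORAI2 differed by 0.0011, with an interval of -0.39 to 0.40 and replicate 1 before maturation (5.24) above the other 5 arrays. By limma 0 of these 4 genes were called, and 0 had an unadjusted p under 0.05. With ribosomal protein genes held level all 4 were called higher (0.44 for STIM2 to 0.71 for ORAI1). Under that scaling 82.0% of all probes were called in either direction.

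Among voltage-gated calcium channel genes the pore-forming CACNA1E fell and the beta subunit gene CACNB1 rose. CACNA1E (probe 15328155) encodes the pore of R-type channels. Its levels were 6.46, 6.43 and 6.61 in the earlier pools and 6.02, 6.11 and 5.93 in the matured pools, with a gap between the groups and no overlap. It fell by 0.48 with a standard error of 0.10 (adjusted p = 0.0171). The call was lost without replicate 1 or 3 after maturation (adjusted p = 0.0694 and 0.0609) and after a second quantile normalization (-0.33, adjusted p = 0.0662). The difference of CACNA1E was -0.022 and not called once ribosomal protein genes were held level.

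The other 5 pore-forming genes were not called. These were CACNA1A, CACNA1C and CACNA1D, of P/Q-type and L-type channels, and CACNA1G and CACNA1I, of T-type channels. The T-type gene CACNA1H was not among the members. CACNA1G, a T-type pore gene, had levels of 4.93, 4.95 and 5.32 before maturation and 5.22, 5.23 and 4.81 afterwards, so the groups overlapped. CACNA1C had the largest positive value of the 5, 0.25 (95% interval -0.09 to 0.59), with replicate 1 after maturation (4.18) below all earlier pools.

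Accessory calcium channel genes had 10 of 11 positive values, as they did under cyclic loess, and a median difference of 0.24 against 0.08 for all probes. CACNB1 (probe 15207799), whose beta subunit helps bring the pore to the membrane, was the 1 gene of the 11 that was called. Its levels were 6.52, 6.71 and 6.70 in the pools taken before and 7.13, 7.05 and 6.93 in those after maturation, a difference of 0.39 with a standard error of 0.10 (adjusted p = 0.0445). The call was lost with the replicate number as a block, which compares same-numbered arrays (adjusted p = 0.0549), with cyclic loess (adjusted p = 0.0666), with trend and robust set (adjusted p = 0.0905) and without any 1 of the 6 arrays (adjusted p = 0.0616 to 0.148).

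CACNG7, a gamma subunit gene, had the largest positive value of the accessory genes. Its levels were 7.17, 6.81 and 6.71 in the earlier pools and 7.74, 7.14 and 7.20 in the matured pools. Replicate 1 was the highest in both groups, so that the groups overlapped while each numbered pair had a positive value. The difference of 0.47 was not called as fitted (adjusted p = 0.142) and was called with the replicate block (adjusted p = 0.0226). Without replicate 1 after maturation the CACNG7 difference was 0.27. CACNA2D1, an alpha-2-delta subunit gene, had the only negative value of the accessory genes, -0.18 (95% interval -0.49 to 0.12), and with ribosomal protein genes held level all 11 were positive.

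Of the 17 TRP genes, which encode cation channels gated by lipids, heat, calcium and other cues, or a protein associated with them, 1 was called. TRPM6 (probe 15197567) encodes a magnesium- and calcium-permeable channel fused to a kinase. Its levels were 8.10, 8.18 and 8.16 before maturation and 8.43, 8.60 and 8.66 afterwards. The earlier pools lay close together (SD 0.039, n = 3), all matured pools lay above them, and TRPM6 rose by 0.42 with a standard error of 0.10 (adjusted p = 0.0289). The call held without replicate 1 after maturation (adjusted p = 0.0431) and was lost without each other single array (adjusted p = 0.0587 to 0.0960).

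TRPM7, the closest relative of TRPM6 and a channel linked to calcium entry in mouse oocytes, had a value of the opposite sign. Its levels were 7.94, 7.80 and 8.46 in the pools taken before and 7.80, 8.05 and 7.87 in those after maturation. Replicate 3 before maturation stood above the other 5 arrays, and the difference was -0.16 (95% interval -0.55 to 0.23, adjusted p = 0.558). Without that array it was 0.038, and with ribosomal protein genes held level it was 0.30, called in neither case. Whether TRPM6 and TRPM7 differed from each other in their change was not tested.

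TRPC1, a subunit of receptor-operated cation channels, had the lowest value of the TRP genes. Its levels were 4.89, 5.0 and 6.04 in the earlier pools and 4.68, 4.44 and 4.86 in the matured pools. The groups did not overlap, but replicate 3 before maturation lay more than a log2 unit above the others of its group (SD 0.63, n = 3), and the difference of -0.65 was not called as fitted (adjusted p = 0.167). It was called with the replicate block (adjusted p = 0.0468), and was -0.29 without replicate 3 before maturation. TRPC4 and TRPC5, subunits of the same kind of channel, had values of 0.17 and 0.27 and were not called as fitted (adjusted p = 0.295 and 0.0868). Their groups did not overlap, as for 36.1% of all probes. For TRPC4 the margin was narrow (9.902 before against 9.905 after), and TRPC5 lay under the lower quartile on all 6 arrays.

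TRPV genes encode channels for heat and, in TRPV5 and TRPV6, selective calcium uptake. All 6 had positive values, from 0.090 for TRPV6 to 0.35 for TRPV2, and under cyclic loess all 6 stayed positive, from 0.0037 to 0.25. By limma 0 of 6 were called and 2, TRPV2 and TRPV5, had an unadjusted p under 0.05, as did 29.2% of all probes. TRPV3, which mediates heat- and drug-evoked calcium entry in mouse eggs, had levels of 6.12, 5.97 and 5.92 before maturation and 6.19, 6.02 and 6.18 afterwards. These overlapped, with a difference of 0.12 (adjusted p = 0.431).

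**Figure D4:**
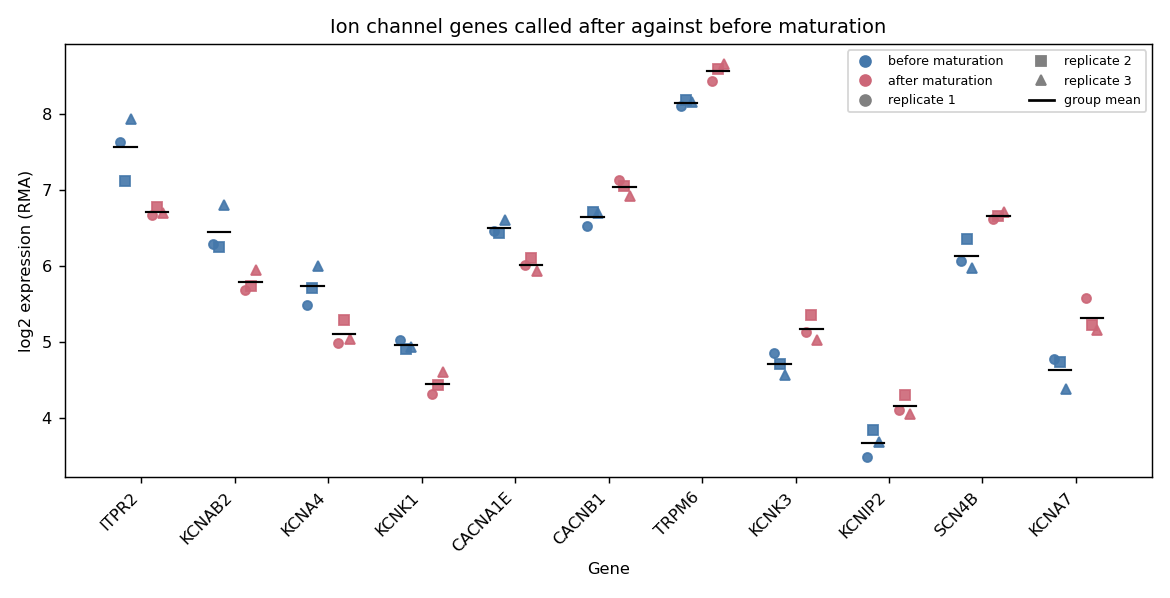
Log2 level (vertical axis) on each array of the 11 called ion channel genes, ordered by difference, with blue before and red after maturation, the marker shape giving the replicate and a black bar the group mean. The groups do not overlap for any of these 11 genes, and replicate 3 before maturation is the highest earlier array for ITPR2, KCNAB2, KCNA4 and CACNA1E.

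Potassium channel genes were the largest family, with 62 members, of which 3 rose and 3 fell. Called genes made up 9.68% of them, against 11.3% of all probes. Their median difference was 0.17. Of 23 pore-forming genes of voltage-gated channels KCNA7 rose and KCNA4 fell. Both encode members of the Shaker-like Kv1 family, whose channels repolarise excitable cells.

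KCNA7 (probe 15297610) had the largest increase of all 113 genes. Its levels were 4.78, 4.74 and 4.39 in the pools taken before and 5.58, 5.23 and 5.17 in those after maturation, and the matured array was the higher one in each numbered pair. The difference was 0.69 with a standard error of 0.15, or 1.61-fold (adjusted p = 0.0232). The call was lost without replicate 1 or 2 after maturation (adjusted p = 0.0821 and 0.0638) or replicate 3 before it (0.56, adjusted p = 0.0519).

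KCNA4 (probe 15255210) had levels of 5.50, 5.71 and 5.99 in the earlier pools and 4.99, 5.29 and 5.05 in the matured pools. Replicate 3 had the widest gap, and the gene fell by 0.62 with a standard error of 0.14 (adjusted p = 0.0294). The call was lost without replicate 1 or 3 after maturation (adjusted p = 0.116 and 0.0852) and without replicate 2 or 3 before it (adjusted p = 0.0679 and 0.0608). The other Kv1 genes had no calls, with values of 0.022 for KCNA3, -0.12 for KCNA5 and 0.23 for KCNA6.

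Of the 23 pore-forming genes of voltage-gated potassium channels 21 had positive values, against 14 under cyclic loess. KCND3, of the transient A-type current, had levels of 5.41, 5.36 and 5.18 before maturation and 5.72, 5.73 and 5.56 afterwards. The groups did not overlap, and its difference of 0.35 was not called as fitted (adjusted p = 0.0640) but was with the replicate block (adjusted p = 0.0451). KCNH2, the gene of the cardiac hERG channel, differed by 0.074 with overlapping groups. Of the 23 genes 5 had an unadjusted p under 0.05, a share of 21.7% against 29.2% of all probes.

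Of 14 accessory potassium channel genes KCNAB2 fell and KCNIP2 rose. KCNAB2 (probe 15304316) encodes a beta subunit that binds Kv1 channels such as the product of KCNA4. Its levels were 6.30, 6.25 and 6.80 in the pools taken before and 5.69, 5.74 and 5.95 in those after maturation, with replicate 3 the highest in both groups. It fell by 0.66 with a standard error of 0.16 (adjusted p = 0.0337), by 0.48 without replicate 3 before maturation (adjusted p = 0.0424), and the call was lost without replicate 1, 2 or 3 after maturation (adjusted p = 0.124, 0.115 and 0.0546) and after a second quantile normalization (-0.54, adjusted p = 0.0657).

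KCNIP2 (probe 15234007) encodes a calcium-binding partner of Kv4 channels such as the product of KCND3. Its levels were 3.49, 3.85 and 3.69 in the earlier pools and 4.11, 4.31 and 4.06 in the matured pools, a difference of 0.48 with a standard error of 0.12 (adjusted p = 0.0405). All 6 of these values lay under the lower quartile of their array, which makes it the 1 called gene with a group that dim. Without replicate 2 before maturation it was still called (adjusted p = 0.0364), and without each other single array it was not (adjusted p = 0.0677 to 0.134). Cyclic loess, a second quantile normalization and array weights each ended the call of KCNIP2 (adjusted p = 0.0699, 0.0565 and 0.0544). Genes of the KCNE family, small partners of voltage-gated channels, had values of 0.14 to 0.47, with KCNE3 the highest and none of KCNE1 to KCNE5 called.

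Inward rectifier genes, whose channels hold the resting potential, had positive values without a call. All 10 lay, on the deposited scale, between 0.050 and 0.37, around a median of 0.20, and 9 of 10 were positive under cyclic loess and after a second quantile normalization. KCNJ11, the pore of ATP-sensitive potassium channels, had levels of 5.13, 5.11 and 5.02 before maturation and 5.39, 5.61 and 5.37 afterwards. The groups did not overlap, and the difference of 0.37 was close to the threshold as fitted (adjusted p = 0.0523) and called with the replicate block (adjusted p = 0.0488). By limma 0 of 10 were called and 2, KCNJ11 and KCNJ15, had an unadjusted p under 0.05, as did 29.2% of all probes.

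Among 9 genes of tandem-pore potassium channels, which carry background leak currents, KCNK1 fell and KCNK3 rose. KCNK1 (probe 15232145) had levels of 5.03, 4.92 and 4.93 in the pools taken before and 4.32, 4.44 and 4.61 in those after maturation. The groups stood well apart, and it fell by 0.50 with a standard error of 0.10 (adjusted p = 0.0181). The call was lost without replicate 1 or 2 after maturation (adjusted p = 0.0770 and 0.0678).

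KCNK3 (probe 15277073) encodes the acid-sensitive leak channel TASK-1. Its levels were 4.86, 4.71 and 4.58 in the earlier pools and 5.13, 5.36 and 5.03 in the matured pools, a difference of 0.46 with a standard error of 0.12 (adjusted p = 0.0463). The call was lost with cyclic loess (adjusted p = 0.0711), was kept without replicate 1 before maturation (adjusted p = 0.0367) and was lost without each other single array (adjusted p = 0.0588 to 0.140). KCNK15, a relative of KCNK3, had a difference of nearly the same size, 0.47, but a wider spread before maturation (SD 0.34, n = 3), and was not called (adjusted p = 0.104). Without replicate 2 before maturation KCNK15 was called at 0.64 (adjusted p = 0.0244).

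Calcium- and sodium-activated potassium channel genes had no call as fitted. KCNMA1, the pore of the large-conductance BK channel, had levels of 6.22, 6.41 and 6.0 before maturation and 6.42, 6.48 and 6.68 afterwards. All matured pools lay above the earlier ones, by a narrow margin in 1 case, and the difference was 0.32 (95% interval 0.02 to 0.61, adjusted p = 0.147). KCNMA1 was called after a second quantile normalization (0.47, adjusted p = 0.0430). KCNN1, a small-conductance channel gene, had a value of 0.41 and matured pools that lay close together (SD 0.055, n = 3) beside spread earlier ones (SD 0.40, n = 3), and it was called at 0.61 without replicate 1 before maturation (adjusted p = 0.0307). Of the 6 genes 3 had an unadjusted p under 0.05, as did 29.2% of all probes.

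Among 5 sodium channel genes the beta subunit gene SCN4B rose. SCN4B (probe 15330515) encodes a subunit that shapes the gating of the pore. Its levels were 6.06, 6.36 and 5.97 in the pools taken before and 6.62, 6.66 and 6.71 in those after maturation. The matured pools lay close together (SD 0.043, n = 3), and the difference was 0.53 with a standard error of 0.12 (adjusted p = 0.0241). Without replicate 2 before maturation the call held (adjusted p = 0.0104), and without each other single array it was lost (adjusted p = 0.0510 to 0.0822). SCN2B, the other beta subunit gene, differed by 0.0080 (adjusted p = 0.968). The pore genes SCN1A, SCN7A and SCN8A had values of 0.19, -0.0059 and 0.29 and were not called.

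The 3 CLC genes, which encode chloride channels and proton exchangers of endosomes and lysosomes, were not called. CLCN3 had levels of 9.19, 9.15 and 9.03 in the earlier pools and 9.54, 9.43 and 9.40 in the matured pools. The groups did not overlap, and the difference of 0.34 lay close to the threshold (adjusted p = 0.0554). CLCN6 and CLCN7 had values of -0.34 and -0.19 with overlapping groups, and CLCN6 was at -0.18 without replicate 1 before maturation and at 0.12 with ribosomal protein genes held level. CLCN3 was called with a common median (0.39, adjusted p = 0.0302), after a second quantile normalization (adjusted p = 0.0472) and with array weights (adjusted p = 0.0478).

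Of the 20 cumulus and granulosa markers 12 fell and 3 rose. The genes called lower share the direction of most of these markers by selection, so that match was fixed in advance. Replicate 3 before maturation had the highest mean of those markers (7.89). It was also the highest earlier array for ITPR2, KCNAB2, KCNA4 and CACNA1E, and for TRPC1 and TRPM7, which were not called as fitted. That array was also the highest earlier one for the oocyte marker KIT, at 10.2 beside 9.84 and 9.62 in replicates 1 and 2. The mean of the 18 oocyte markers was instead lowest there, at 10.58 beside 10.67 and 10.66 in replicates 1 and 2. ZP3 was lowest there too (11.34 beside 11.70 and 11.44), and ZP4 was highest in replicate 1 (12.12). For KCNK1 the highest earlier array was replicate 1. Without replicate 3 before maturation ITPR2, KCNAB2, KCNK1 and CACNA1E were still called lower. Of the oocyte markers 3 of 18 fell as well. The part of cumulus cell RNA in these decreases was not tested. Over all members replicate 3 before maturation was the lowest of the earlier pools for 55 of 113 genes and the highest for 26. Over all 12258 probes it was the lowest for 4994 and the highest for 3928.

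**Figure D5:**
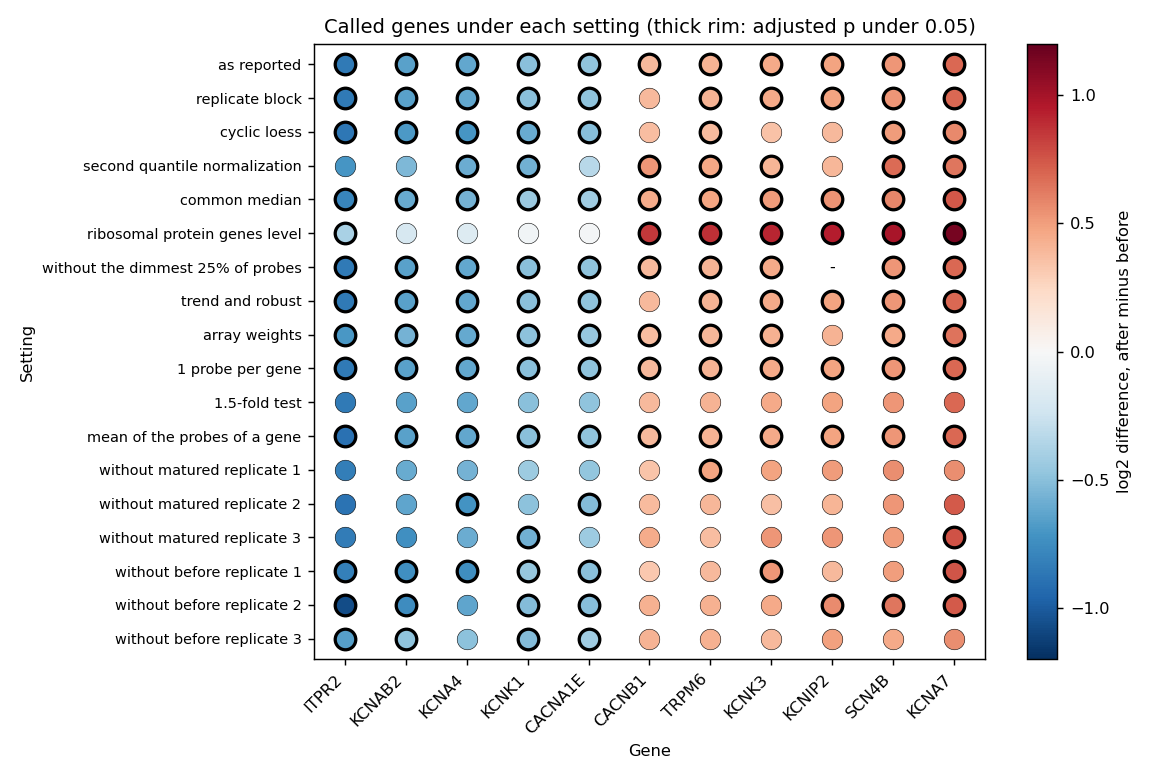
Log2 difference (colour) of the 11 called genes (columns) under each processing setting (rows), with a thick rim where the adjusted p is under 0.05 and a dash where the probe was not tested. No gene changes sign in any row, no gene keeps a thick rim in all 6 rows that leave out an array, and 1 of 11 keeps it without replicate 1 after maturation.

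Each of the 11 calls was lost without at least 1 of the arrays. Of the 11 called genes 1 was still called without replicate 1 after maturation, 2 without replicate 2 and 2 without replicate 3. Without replicate 1, 2 or 3 before maturation 7, 7 and 4 were. Of all probes 11.3% were called as fitted. Without replicate 1, 2 or 3 after maturation that share was 5.17%, 5.42% and 7.69%. Without replicate 1, 2 or 3 before maturation it was 11.8%, 8.81% and 7.77%. CACNA1E and KCNK1 kept the call in 4 of 6 leave-outs, and ITPR2, KCNA7 and KCNAB2 in 3. In each of these fits all 11 kept their sign. With ribosomal protein genes held level, which raises every probe's difference by the same amount, ITPR2 was the only member still called lower (-0.39, adjusted p = 0.0499), while KCNAB2, KCNA4 and KCNK1 had values of -0.20, -0.17 and -0.044 and were not called.

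Genes that lie side by side in the RefSeq annotation of Sscrofa11.1 mostly had values of 1 sign. All 113 symbols were found in that annotation, and 9 pairs of members were direct neighbours among protein-coding genes. The gamma subunit genes CACNG5, CACNG4 and CACNG1 stand in a row, with differences of 0.19, 0.35 and 0.20, and CACNG6 beside CACNG7 had 0.24 and 0.47. TRPV3 and TRPV1 had 0.12 and 0.16, and TRPV5 and TRPV6 had 0.30 and 0.090. The sodium channel beta genes SCN4B and SCN2B stand next to each other as well, and there the values were 0.53 and 0.0080. KCNB2 beside TRPA1 was the pair with opposite signs, at 0.094 and -0.042. These are descriptions, since most members had positive values.

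Genes that handle calcium around these channels were read from lists outside the rule. Of 11 calcium pumps and exchangers ATP2A3, an endoplasmic reticulum pump gene, rose by 0.67 (adjusted p = 0.0343), and 0 fell. ATP2A1, a related pump gene, had a value of 0.23 (adjusted p = 0.144). Of 10 genes of IP3 production 3 fell and 0 rose, where 8.07% of all probes were called lower. These were the phospholipase C genes PLCB4 (-1.08, adjusted p = 0.00394) and PLCB3 (-0.57, adjusted p = 0.0113) and the G protein gene GNA14 (-0.89, adjusted p = 0.00119). The list's median difference was 0.019 beside 0.08 for all probes.

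Of 16 calcium sensors, kinases and phosphatases 4 fell and 0 rose, where 8.07% of all probes were called lower. The list's median difference was 0.032, with 8 positive and 8 negative values. CAMK1G, a calmodulin-dependent kinase gene, went from 6.24, 6.09 and 6.75 before to 4.22, 4.24 and 4.20 after maturation, a difference of -2.14 (adjusted p = 0.000120). All 3 matured values of CAMK1G lay under the lower quartile of their array, so the size of its fall is uncertain. CAMK1D fell by 0.50, and CALR and CALU, which encode calcium-binding proteins of the endoplasmic reticulum and secretory pathway, fell by 0.36 and 0.55. Of 7 genes of mitochondrial calcium uptake SMDT1, a subunit of the uniporter, fell by 0.43 (adjusted p = 0.0472) and VDAC2 had a value of -0.96 (adjusted p = 0.0551). Of 6 regulators of store-operated entry 0 were called by limma. Among them 2, SARAF (-0.30) and FKBP1A (0.29), had an unadjusted p under 0.05, as did 29.2% of all probes.

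Among ion channel families outside the naming rule 1 gene, MCOLN3, differed by 2-fold or more. Of the 47 measured genes of these families 4 rose and 2 fell, 12.8% called against 11.3% of all probes. MCOLN3, a TRP channel gene of the mucolipin group that the naming rule leaves out, went from 6.66, 7.18 and 7.82 before to 4.34, 4.40 and 4.37 after maturation. It fell by 2.85 (adjusted p = 0.000256), with the highest earlier level in replicate 3. After maturation replicates 1 and 2 lay under the lower quartile of their array. Replicate 3 after maturation lay just above it (4.37 against 4.33), so the size of the fall of MCOLN3 is uncertain. LRRC8B, of volume-regulated anion channels, CNGB1, of cyclic nucleotide-gated channels, and ASIC2, of acid-sensing channels, rose by 0.57, 0.68 and 0.48. ANO4, of the anoctamins, rose by 0.42 (adjusted p = 0.0492), and PKD2, the gene of polycystin-2, fell by 0.66 (adjusted p = 0.0411).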

How the data were processed

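Total RNA from 6 oocyte pools, 3 before and 3 after maturation in culture, was measured on 1-colour Affymetrix arrays. The deposited table holds expression values that the authors made with RMA, per the submitters' processing notes, and that these are log2 values follows from that method and from their range, not from a header. RMA as usually run quantile-normalizes arrays, which draws array totals together, and its version, options and filters were not given in the sources used here. Probes were named from the platform annotation, in which 10715 probes had 1 symbol, 475 several and 1068 none. The table of RefSeq genes of Sscrofa11.1 served only for names and neighbours.

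Each of the 12258 probes was tested, 3 arrays against 3, by limma's moderated two-sided test (version 3.58.1, functions lmFit and eBayes, R 4.3.3), and p-values were adjusted by Benjamini-Hochberg across the whole table, with 0.05 as the threshold. Every adjusted p comes from this fit or from the named alternative, and "called" means past that threshold. With 3 against 3 an exact two-sided permutation test of 1 gene cannot go under 0.10, so none was run. The labels call the pools biological replicates without naming the animals, so p-values measure the spread between these pools, and the number of arrays limits the precision. Same-numbered arrays deviated together from their group means (correlations across probes of 0.283, 0.120 and 0.142). With 3 arrays per group few pairings are possible, so these correlations cannot show whether the numbers pair the arrays. The fit has no block, and blocked values are given where they change a call.

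The members, roles and lists were chosen with earlier results of these data known. Named genes were the called members, all ITPR, RYR, STIM and ORAI genes, the largest positive and negative value of each role, and from each list up to 4 called genes or the 2 smallest p. Members with an unadjusted p under 0.05 could be named too, and some of them were. Other genes given with values, among them CACNA1G, TRPV3, TRPV6, TRPC4, KCNA3, KCNA5, KCNA6, KCNH2, SCN1A, SCN2B, CLCN7, ANO4, PKD2 and the neighbouring pairs, were chosen after their values were seen. On simulated data of 12258 probes for this comparison, 40 probes were changed per size. The fit found 40 of those set to -2 on the log2 scale, 34 of those set to -1 and 33 of those set to 1. It found 11 of those set to 0.5 and 10 of those set to -0.5, and it called 2 unchanged probes. Far fewer probes were changed there than the 1383 called in the data. The simulated noise was normal and independent between arrays, with spreads shuffled over probes, so these counts need not hold for the data. The 17 alternatives were the block, 4 scalings, a filter on the dimmest 25% of probes, trend and robust moderation, array weights, 1 probe per gene, the mean of a gene's probes, a test against a 1.5-fold change and the removal of each array in turn. Counts and lists were made in Python 3.11.15 (pandas 2.3.3, with matplotlib 3.10.9 for the plots).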

Additional observations from a re-analysis of the deposited data

How the results depend on the processing

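With the replicate block 621 probes were higher, against 394 without it, and among members CACNB1 lost its call while CACNG7, KCND3, KCNJ11 and TRPC1 gained one. With cyclic loess 254 probes and 3 members were higher. A second quantile normalization gave 596 probes higher, and 10 members higher and 2 lower. A common median gave 915 probes and 13 members higher. With ribosomal protein genes held level 9516 probes were higher and 535 lower, 103 members were higher and 1 lower, and the members' median difference was 0.63. By construction this adds the same amount to each probe's difference, and there ITPRIP (0.41), KCNT2 (0.41), RYR3 (0.43), SCN7A (0.45), STIM2 (0.44) and TRPA1 (0.42) changed from negative values to calls in the higher direction. The test against a 1.5-fold change left 27 probes higher and 222 lower, and 0 members in the higher and 0 in the lower direction. Leaving out 1 array at a time gave 103 to 434 probes higher and 531 to 1013 lower, with 0 to 5 members higher and 0 to 5 lower. Without the dimmest 25% of probes KCNIP2 was not tested. Of 608 values of 36 named genes over the alternatives 470 kept their sign and side of the threshold, 68 lost the call, 28 gained one, 6 reversed, and 36 turned sign while called in neither setting. Apart from the block, the added amount and the arrays left out, the cause of these shifts was not tested. Background was not assessed, so how much of a dim probe's level is signal was not tested.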
